A study of Mus musculus with 24 samples.

Results

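The 10 genes of hepcidin and iron handling followed here in the liver of mice on a low-fat or an obesogenic diet were the hepcidin genes Hamp and Hamp2, the BMP ligand Bmp6, the BMP and SMAD target genes Id1 and Smad7, the transferrin receptors Tfr2 and Tfrc, transferrin (Trf), the iron exporter ferroportin (Slc40a1) and the ferritin heavy chain (Fth1). Every probe that the scanner files named by 1 of these 10 symbols was taken, which gave 15 of the 56605 probes on the array, for 10 of 37074 gene names. All 15 probes passed the filter on dim probes. They were well above background on every array, apart from the dimmer Smad7 probe, which was so on 9 of 9 reference, 7 of 8 HFoleic and 6 of 7 HFepa arrays.

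RNA of 24 livers, each from 1 male C57Bl6J mouse, was hybridised to Agilent mouse expression arrays in 1 colour. The mice were the third generation of 2 lineages, bred on a diet with added fish oil, a source of eicosapentaenoic acid (EPA, the n-3PUFA lineage), or with added high-oleic sunflower oil (the control fatty acid lineage). HFoleic (8 mice, control fatty acid lineage) and HFepa (7 mice, n-3PUFA lineage) received a high-fat, high-sucrose diet, whereas the reference group (9 mice, control fatty acid lineage) received a low-fat diet, and all mice were killed while fasting. No low-fat group of the n-3PUFA lineage was among the samples, so a lineage difference on the low-fat diet could not be read, and the age of the mice is not given in the labels. Both comparisons with the low-fat diet share the same 9 reference mice.

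Hepcidin is a peptide hormone that the liver secretes. It binds ferroportin, the only known exporter of iron from cells, and causes its degradation, so that high hepcidin keeps iron inside enterocytes, macrophages and hepatocytes. Hepatocytes transcribe Hamp in response to iron through BMP6, a ligand made mainly by sinusoidal endothelial cells, whose receptors activate SMAD proteins. Id1 and Smad7 are induced by the same signal, and interleukin 6 raises Hamp through STAT3.

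The mouse carries 2 hepcidin genes side by side, and the array has 1 probe for each. The probe sequences are shown because they decide which of both copies a signal stands for. Bases that differ between both probes are in capitals. In mm9, the Hamp probe lies on chr7:31727490-31727549 and the Hamp2 probe on chr7:31707520-31707579, both on the minus strand and 19970 bases apart.
Hamp probe: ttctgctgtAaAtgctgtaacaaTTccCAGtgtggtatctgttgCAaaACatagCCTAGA
Hamp2 probe: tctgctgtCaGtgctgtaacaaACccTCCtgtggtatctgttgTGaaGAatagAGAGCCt
Aligned without gaps at a shift of 1 base, the probes shared 42 of 59 bases (71.2%) and differed at 17. How far each probe also bound the RNA of the other copy was not tested.

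The region upstream of both genes is shown because it holds the letters of the motifs through which the BMP and interleukin 6 signals are known to act on hepcidin. The 250 bases before the start of each gene are given (RefSeq, GRCm38.p6, minus strand), with every match to GGCGCC, the core of a BMP responsive element, and to TTCNNNGAA, the core of a STAT site, in capitals. Both motifs read the same on either strand, so 1 scan covered both strands. The Hamp window is chr7:30944030-30944279 and the Hamp2 window is chr7:30924182-30924431.
Hamp upstream: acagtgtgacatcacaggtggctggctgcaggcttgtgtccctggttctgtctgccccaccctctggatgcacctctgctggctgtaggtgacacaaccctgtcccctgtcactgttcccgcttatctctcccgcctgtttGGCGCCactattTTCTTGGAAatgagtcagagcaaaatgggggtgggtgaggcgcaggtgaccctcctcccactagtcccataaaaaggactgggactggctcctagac
Hamp2 upstream: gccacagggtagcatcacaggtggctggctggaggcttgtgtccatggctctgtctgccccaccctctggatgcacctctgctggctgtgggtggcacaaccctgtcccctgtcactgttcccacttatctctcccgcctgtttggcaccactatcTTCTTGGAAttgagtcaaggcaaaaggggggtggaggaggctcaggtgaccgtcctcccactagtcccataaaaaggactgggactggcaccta
The windows were identical at 91.9% of 247 aligned bases. GGCGCC began 109 bases before the Hamp start, and the aligned Hamp2 letters carried 1 substitution, G4A, with positions counted from 1 at the 5′ end of the motif. TTCTTGGAA was present in both, 97 bases before the Hamp start and 94 before the Hamp2 start, and the 2 matches did not overlap within a window. Among 32851 such windows of the RefSeq table, 9.59% held GGCGCC and 7.02% held TTCNNNGAA. Of the 10 genes, 6 had an entry in that table. Apart from Hamp, Tfrc held GGCGCC, in 1 of its 2 windows. A match describes letters only, and binding was not measured.

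Hamp had lower group means on the obesogenic diet in both lineages. On the scale of log2 normalized signal, the 9 reference mice ran from 15.33 to 16.83 with a median of 15.88, the 8 HFoleic mice from 13.73 to 16.18 with a median of 15.24, and the 7 HFepa mice from 13.54 to 15.59 with a median of 15.13. The groups overlapped, with 5 of 8 HFoleic mice and 5 of 7 HFepa mice below every reference mouse, and all 7 HFepa mice were below the reference mean. The Hamp signal averaged 55.8% of the reference in HFoleic, a log2 difference of -0.84 (SE 0.308, 95% interval -1.48 to -0.21), and 49.0% in HFepa, a log2 difference of -1.03 (SE 0.319, 95% interval -1.69 to -0.37). Neither passed the test across all probes in limma (adjusted p = 0.101 in HFoleic and 0.134 in HFepa, unadjusted p = 0.0116 and 0.00359). Without HFoleic replicate 3 the HFoleic difference was -0.999 with an adjusted p of 0.0496. It was not called in the other 23 of 24 runs that left out 1 mouse (adjusted p up to 0.199). In HFepa no such run passed (adjusted p from 0.0853 to 0.242). Both differences had the same sign on each of the 3 slides, from -0.72 to -1.02 in HFoleic and from -0.63 to -1.36 in HFepa. In a bulk liver sample, fewer cells of a type and less RNA per cell cannot be told apart.

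**Figure D1:**
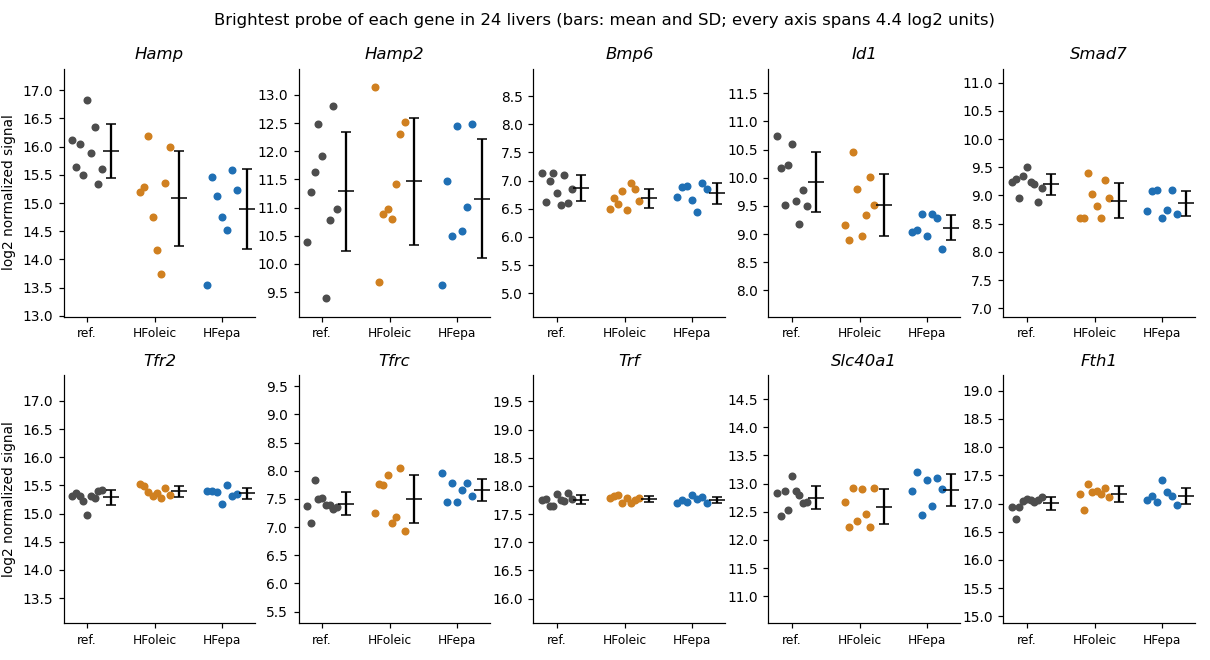
Log2 normalized signal (y axis) of the brightest probe of each of the 10 genes in every mouse, by group (x axis; ref. is the reference group), with the group mean and SD as bars. Each y axis spans the same number of log2 units. Hamp2 has a wide spread (9.40 to 13.14) and Trf a narrow one (17.65 to 17.87), which quantile normalization partly builds in for probes this bright. Hamp sits lower in HFoleic and HFepa.

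Against the reference, 0 of the 15 probes were called in HFoleic, where 7.23% of the 30003 tested probes were, and 0 of 15 in HFepa, where 0.393% were. At an unadjusted p under 0.05 there were 5 of 15 in HFoleic against 21.1% of all probes, and 4 of 15 in HFepa against 13.5%. The 5 in HFoleic were the probes of Hamp and Fth1, both Smad7 probes and the dimmer Slc40a1 probe, and the 4 in HFepa were the probes of Hamp and Id1, the brighter Smad7 probe and the dimmer Slc40a1 probe. The methods' t-test, with Benjamini-Hochberg adjustment, called 0 of 15 in HFoleic, where it called 5.82% of all probes, and 0 of 15 in HFepa, where it called 0 (0%) of all probes. In each comparison 6 of 15 fell under an unadjusted p of 0.05 by that test, against 20.2% of all probes in HFoleic and 11.6% in HFepa. The median size of the log2 difference over the 15 probes was 0.168 in HFoleic and 0.133 in HFepa, against 0.0955 and 0.0826 over all tested probes.

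The mean of both was also set against the reference in the same fit, a comparison added after the first results had been seen. Here 2 of 15 probes were called, against 6.1% of all probes, and 7 of 15 had an unadjusted p under 0.05, against 19.8%. Hamp fell by 0.93 on the log2 scale (SE 0.267, limma adjusted p = 0.0367), with 13 of 15 high-fat mice below the reference mean. The dimmer Slc40a1 probe rose by 0.45 (SE 0.136, adjusted p = 0.0482). Leaving out any of 9 mice (reference 1, 3, 5, 6 and 7, HFoleic 4 and 5, HFepa 4 and 5) ended the Hamp call, with adjusted p between 0.0508 and 0.0799, and the call of the Slc40a1 probe remained without reference 3, 6 or 8, HFoleic 2 or 4, or HFepa 3 or 5, but not without any other mouse (adjusted p from 0.0509 to 0.112). Id1 (log2 difference -0.61, adjusted p = 0.0525) and the brighter Smad7 probe (-0.32, adjusted p = 0.0594) lay just outside the threshold. Without single mice Id1 passed it in 6 of 24 runs (reference 3, 7, 8 or 9, HFoleic 3 or 7), the brighter Smad7 probe in 4 (reference 8, HFoleic 3 or 7, HFepa 3) and the dimmer one in 1 (reference 3), with adjusted p of 0.0225 at the lowest. By the methods' t-test 0 of 15 probes were called here, against 5.39% of all probes, and 7 of 15 lay under an unadjusted p of 0.05, against 19.7%. The array of reference replicate 5 stood apart from the others, with a median correlation of 0.976 with the arrays of its group against 0.987 to 0.993 for the other 23 arrays, and the highest median signal, 89. Without it the Hamp difference was -0.82 (adjusted p = 0.0799) and that of the dimmer Slc40a1 probe 0.44 (adjusted p = 0.0833).

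Hamp2, the neighbouring copy, had group means close to each other. The reference mice ran from 9.40 to 12.80 with a median of 11.28 on the log2 signal scale, the HFoleic mice from 9.68 to 13.14 with a median of 11.19, and the HFepa mice from 9.63 to 12.48 with a median of 11.01. The 3 ranges overlapped almost wholly, and single mice of a group differed up to 10.98-fold in HFoleic, 10.6-fold in the reference group and 7.19-fold in HFepa. The log2 difference was 0.17 in HFoleic (95% interval -0.83 to 1.18, limma adjusted p = 0.889) and -0.13 in HFepa (95% interval -1.17 to 0.91, adjusted p = 0.949), so a change of the size seen for Hamp lies within the interval of HFepa. Its sign varied over the 3 slides, with -0.09, 1.41 and -0.74 in HFoleic and -0.57, 0.31 and 0.16 in HFepa. In rows 1 and 2 of the slides it was -0.31 and 0.64 in HFoleic, and -0.87 and 0.40 in HFepa.

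The difference between both probes within each mouse, Hamp minus Hamp2, compared both copies on the same array. This measure was added after the values had been seen. Its values were quantile normalized, so array scaling need not cancel in the difference. It averaged 4.63 ± 1.26 log2 units (SD) over 9 reference mice, 3.62 ± 1.27 over 8 HFoleic mice and 3.73 ± 0.881 over 7 HFepa mice. Relative to the reference it differed by -1.01 in HFoleic (exact permutation test, two-sided, p = 0.120, adjusted p = 0.131 over 2 tests) and by -0.90 in HFepa (exact p = 0.131, adjusted p = 0.131). An unequal change of both copies was therefore not resolved with these numbers of mice. Without reference replicate 8 the values were -1.28 in HFoleic and -1.16 in HFepa, each with an adjusted p of 0.0493. In the other 23 of 24 runs that left out 1 mouse neither passed, with adjusted p up to 0.239 and 0.261.

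**Figure D2:**
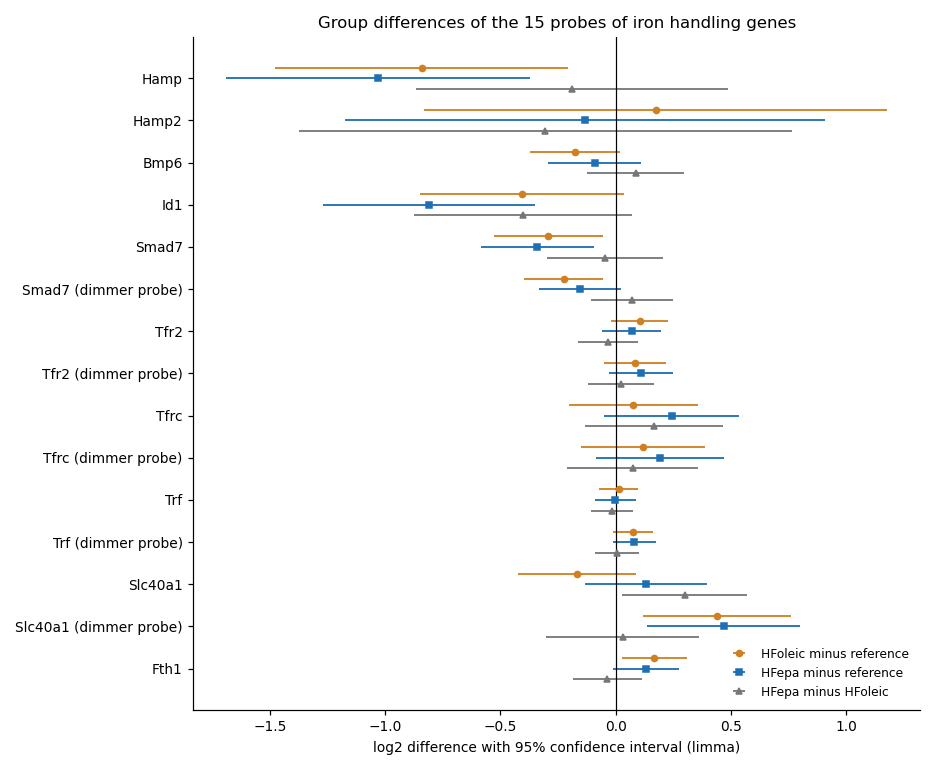
Log2 difference (x axis) with its 95% confidence interval from limma for each of the 15 probes (y axis), in HFoleic minus reference (orange circles), HFepa minus reference (blue squares) and HFepa minus HFoleic (grey triangles). Hamp, Id1 and Smad7 lie to the left of 0 against the reference, the dimmer Slc40a1 probe to the right, and the Hamp2 intervals are the widest among the 15 probes.

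Bmp6, the ligand that drives Hamp, was measured near the low end of these probes, on signals not corrected for background, and its spread on that scale was narrow. Its log2 signal ran from 6.57 to 7.13 in reference mice (median 6.86), from 6.49 to 6.95 in HFoleic (median 6.66) and from 6.44 to 6.96 in HFepa (median 6.84). The log2 difference was -0.18 in HFoleic (95% interval -0.37 to 0.02) and -0.09 in HFepa (95% interval -0.29 to 0.11), and neither passed the test (limma adjusted p = 0.291 and 0.757). Its size depended on the processing. Over the other ways of processing and the runs that left out 1 mouse, it ran from -0.30 to -0.14 in HFoleic and from -0.13 to -0.04 in HFepa, with no call.

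Id1, a transcription regulator induced by BMP signalling, was lowest in HFepa. Its log2 signal ran from 9.18 to 10.73 in reference mice (median 9.78), from 8.89 to 10.46 in HFoleic (median 9.42) and from 8.74 to 9.35 in HFepa (median 9.08). All 7 HFepa mice were below the mean of the reference mice and below the mean of the HFoleic mice, and their SD was 0.23, against 0.54 in each of the other groups. The log2 difference of HFepa from the reference was -0.81 (57.1% of the reference, 95% interval -1.27 to -0.35, limma adjusted p = 0.0981), and on the 3 slides it was -0.67, -0.78 and -0.99. In HFoleic it was -0.41 (95% interval -0.85 to 0.04, adjusted p = 0.284). The difference between both high-fat groups was -0.40 (95% interval -0.87 to 0.07, adjusted p = 0.588).

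Smad7, an inhibitory SMAD that limits BMP signalling and is itself induced by it, was read by 2 probes. On the brighter one the log2 signal ran from 8.89 to 9.51 in reference mice (median 9.23), from 8.59 to 9.40 in HFoleic (median 8.88) and from 8.60 to 9.10 in HFepa (median 8.75), with 7 of 7 HFepa and 6 of 8 HFoleic mice below the reference mean. The log2 difference was -0.29 in HFoleic (81.7% of the reference, limma adjusted p = 0.131) and -0.34 in HFepa (79.0%, adjusted p = 0.189). The dimmer probe, for which 1 reference value was dropped as an outlier spot, gave -0.23 (adjusted p = 0.103) and -0.15 (adjusted p = 0.460). Without HFoleic replicate 3 the brighter probe passed the test in HFoleic (-0.36, adjusted p = 0.0459), and without reference replicate 3 the dimmer one did (-0.28, adjusted p = 0.0353). In the other 23 of 24 runs that left out 1 mouse, each probe stayed outside the threshold in HFoleic (adjusted p up to 0.238 and 0.212).

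The receptors that sense and take up iron-loaded transferrin were not called on any probe. Tfr2, the hepatocyte receptor that acts as an iron sensor upstream of Hamp, ran from 14.97 to 15.43 in reference mice, from 15.27 to 15.53 in HFoleic and from 15.16 to 15.50 in HFepa on its brighter probe. Its log2 differences were 0.10 (95% interval -0.02 to 0.23) and 0.07 (95% interval -0.06 to 0.20), and the dimmer probe gave 0.08 and 0.11 (limma adjusted p from 0.328 to 0.689 over these 4 values). Tfrc, which imports transferrin and whose mRNA is stabilised when cells lack iron, ran from 7.07 to 7.83 in reference mice, from 6.94 to 8.04 in HFoleic and from 7.44 to 7.97 in HFepa. Its log2 difference was 0.08 in HFoleic (95% interval -0.20 to 0.36) and 0.24 in HFepa (95% interval -0.05 to 0.53), and 0.12 and 0.19 on the dimmer probe, with adjusted p of 0.483 or more. In HFepa 7 of 7 mice were above the reference mean on each Tfrc probe, and in HFoleic 4 of 8 and 5 of 8. Trf, the plasma carrier of iron, was among the most even of the 10 genes, from 17.65 to 17.87 over all mice on the brighter probe, with log2 differences of 0.01 (95% interval -0.07 to 0.10) and -0.00197 (95% interval -0.09 to 0.09). Quantile normalization sets the brightest ranks alike on all arrays, so the evenness of a probe as bright as this was partly built in. The dimmer Trf probe gave 0.08 in HFoleic (95% interval -0.01 to 0.16, adjusted p = 0.325), with 8 of 8 mice above the reference mean, and 0.08 in HFepa (95% interval -0.01 to 0.17, adjusted p = 0.445), with 6 of 7 above it. In the mean of both high-fat groups that probe gave 0.08 (95% interval 0.00193 to 0.155, adjusted p = 0.238; unadjusted p = 0.0449).

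For Slc40a1, both probes disagreed. The brighter one (mm9, chr1:45965255-45965314, minus strand) matches a RefSeq transcript per the file headers, and its log2 signal ran from 12.42 to 13.13 in reference mice (median 12.80), from 12.23 to 12.93 in HFoleic (median 12.57) and from 12.44 to 13.21 in HFepa (median 12.91). The dimmer one (chr1:45980637-45980696, minus strand) is listed under an Ensembl transcript, and ran from 7.25 to 8.09 in reference mice (median 7.75), from 7.71 to 8.78 in HFoleic (median 8.17) and from 7.65 to 8.57 in HFepa (median 8.29). The brighter probe gave log2 differences of -0.17 in HFoleic and 0.13 in HFepa (limma adjusted p = 0.481 and 0.725), whereas the dimmer probe gave 0.44 and 0.47 (adjusted p = 0.0898 and 0.179). For the dimmer probe, 1 reference value was dropped as an outlier spot.

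The difference between both Slc40a1 probes within each mouse, a measure chosen after the values had been seen, averaged 5.02 ± 0.280 log2 units (SD) over 8 reference mice, 4.41 ± 0.299 over 8 HFoleic mice and 4.68 ± 0.181 over 7 HFepa mice. Relative to the reference it differed by -0.61 in HFoleic (-0.67 to -0.55 when single mice were left out) and by -0.34 in HFepa (-0.40 to -0.28). The pair was picked because its probes disagreed, so these values are a description with no test, and they do not show which probe changed.

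**Figure D3:**
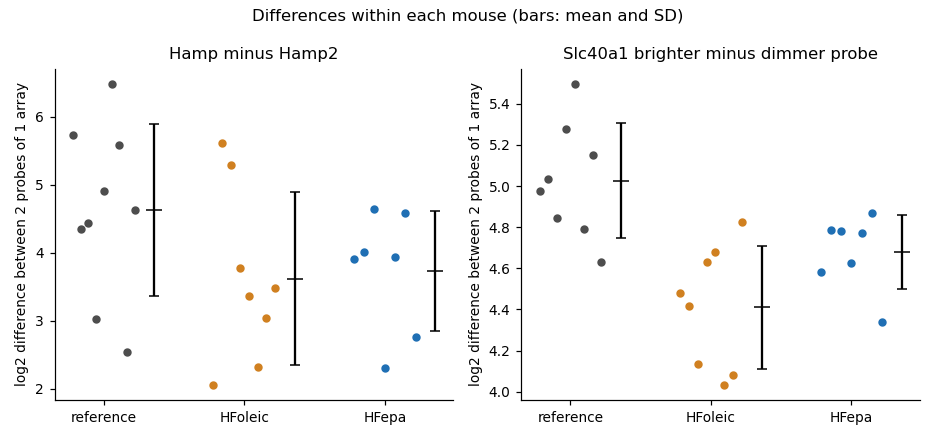
Log2 difference between 2 probes of the same array (y axis) in each mouse, by group (x axis), with mean and SD: Hamp minus Hamp2 on the left and the brighter minus the dimmer Slc40a1 probe on the right. The Slc40a1 values run from 4.63 to 5.50 in reference mice, 4.03 to 4.83 in HFoleic and 4.34 to 4.87 in HFepa, while those of Hamp minus Hamp2 overlap widely.

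Fth1, the ferritin heavy chain that stores iron, ran from 16.73 to 17.12 in reference mice (median 17.05), from 16.88 to 17.35 in HFoleic (median 17.18) and from 16.97 to 17.41 in HFepa (median 17.13). The log2 difference was 0.17 in HFoleic (95% interval 0.03 to 0.31, limma adjusted p = 0.140) and 0.13 in HFepa (95% interval -0.01 to 0.28, adjusted p = 0.428). Without HFoleic replicate 2 the HFoleic value was 0.21, with an adjusted p of 0.0473. The other 23 of 24 runs that left out 1 mouse gave no call in HFoleic (adjusted p up to 0.242).

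Between both lineages on the obesogenic diet, 0 of the 15 probes and 0 (0%) of all tested probes were called by limma, and 1 of 15, against 9.7% of all probes, had an unadjusted p under 0.05. By the methods' t-test 0 of 15, and 0 (0%) of all probes, were called, and 0 of 15 lay under an unadjusted p of 0.05, against 11.6% of all probes. The probe under the unadjusted threshold in limma was the brighter one of Slc40a1, at 0.30 log2 units higher in HFepa (95% interval 0.03 to 0.57, adjusted p = 0.459). On slides 1, 2 and 3 this probe gave 0.16, -0.02 and 0.64. The dimmer Slc40a1 probe gave 0.03 (95% interval -0.30 to 0.36). For Hamp the difference was -0.19 (95% interval -0.87 to 0.49), for Smad7 -0.05 (95% interval -0.30 to 0.20) and for Fth1 -0.04 (95% interval -0.18 to 0.11). These intervals, and that of Hamp most of all among the 3, leave room for differences in either direction, so equal levels in both lineages were not shown.

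Genes that share a regulator can vary together from mouse to mouse within a group, and 5 such relations were computed on values centred on their group means over 24 mice, with mice permuted within groups (100000 resamples, two-sided, adjusted over the 5 relations). Id1 and Smad7 were most closely related (Pearson r = 0.71, permutation p = 2.3e-04, adjusted p = 0.00115; Spearman rho = 0.69, p = 4.7e-04). Without the 2 mice farthest from the Id1 median r was 0.74. Within groups r was 0.57 in reference, 0.91 in HFoleic and 0.61 in HFepa, and on the 3 slides it was 0.90, 0.18 and 0.88, so the relation was weak on slide 2. Hamp and Smad7 were related at r = 0.56 (permutation p = 0.0120, adjusted p = 0.0300; Spearman rho = 0.55, p = 0.0124), with 0.51 without the 2 mice farthest from the Hamp median. Within groups r was between 0.52 and 0.57, and within slides between 0.69 and 0.84. In slide rows 1 and 2 it was 0.37 and 0.78, against 0.68 and 0.80 for Id1 and Smad7. Slide row was not removed as an effect in the correlations. With slide effects removed along with group effects, r of Hamp and Smad7 was 0.50 with an adjusted p of 0.0983. Leaving out reference 5 or 8, HFoleic 3 or 6, or HFepa 2 or 6 also ended the call, with adjusted p from 0.0504 to 0.09997.

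Hamp was less related to Id1 (r = 0.32, rho = 0.22, permutation p = 0.143 and 0.327), to Hamp2 (r = 0.17, rho = 0.09, p = 0.445 and 0.676) and to Bmp6 (r = 0.12, rho = 0.20, p = 0.558 and 0.342), and none of these passed the test (adjusted p of 0.238 or more). Without the 2 mice farthest from the Hamp median these r were 0.35, 0.02 and 0.32. On the 3 slides r of Hamp and Id1 was 0.55, 0.42 and 0.35, that of Hamp and Hamp2 was -0.02, 0.79 and 0.09, and that of Hamp and Bmp6 was 0.35, 0.37 and 0.09. In slide rows 1 and 2 r was 0.14 and 0.51 for Id1, 0.18 and 0.04 for Hamp2, and 0.68 and -0.08 for Bmp6. Within groups the r of Hamp and Hamp2 changed sign, from -0.25 in reference to 0.56 in HFepa, as did that of Hamp and Bmp6, from -0.35 in HFoleic to 0.63 in HFepa. Over all mice without centring, where the group differences themselves add to the relation, r was 0.70 for Hamp and Smad7 and 0.54 for Hamp and Id1.

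**Figure D4:**
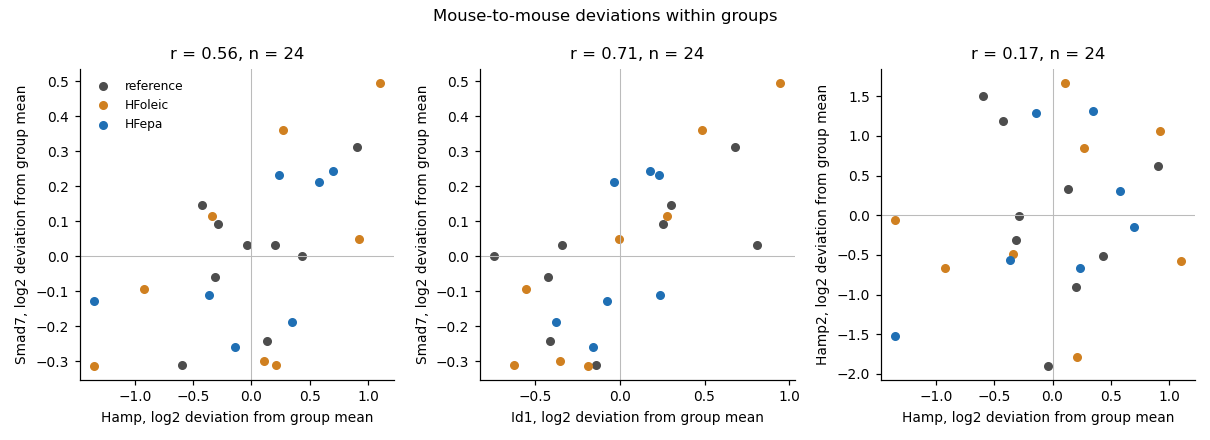
Log2 deviation of each of 24 mice from its group mean, for Hamp against Smad7 (r = 0.56), Id1 against Smad7 (r = 0.71) and Hamp against Hamp2 (r = 0.17), with the first gene on the x axis, the second on the y axis and colours by group. The points of the first 2 panels run from lower left to upper right, and those of Hamp and Hamp2 show no such direction.

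Over 19045 genes, those whose centred values were most like Hamp over the 24 mice included Prmt1 (r = 0.76), Gm4673 (r = 0.71), Dhx9 (r = 0.70) and Ssrp1 (r = 0.70). These are among the highest of many correlations over mice that share slides, and are a description only.

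The pathway around these genes was covered by 8 lists with 75 tested genes, 65 of them besides the 10 above, each read from its brightest probe. In HFoleic, 6 of the 65 were called by limma (9.23%, against 8.07% of 20192 genes), 4 higher and 2 lower, and 24 had an unadjusted p under 0.05 (36.9%, against 22.3% of all genes). Among genes of iron uptake, export and reduction, 1 of 17 rose, Steap4, a metalloreductase, by 0.95 (adjusted p = 0.00602), with a mean log2 signal of 7.42 ± 0.37 (SD, n = 9) in reference and 8.37 ± 0.49 (SD, n = 8) in HFoleic. Among 8 genes of iron storage and release, Slc25a37, the mitochondrial iron importer mitoferrin 1, rose by 0.44 (adjusted p = 0.0111) and Slc25a28, mitoferrin 2, fell by 0.19 (adjusted p = 0.00789). The 2 further Slc25a37 probes gave 0.53 and 0.59 and were not called (adjusted p = 0.333 and 0.284).

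Among 13 genes of haem synthesis, transport and breakdown, 2 rose in HFoleic: Alad, which forms porphobilinogen, by 0.39 (adjusted p = 0.00605) and Fech, which inserts iron into the porphyrin ring, by 0.24 (adjusted p = 0.00897). Every HFoleic mouse was above the highest reference mouse for Alad (13.57 to 13.77 against 12.76 to 13.44). Among 17 regulators of hepcidin at the hepatocyte surface, 1 fell, Smad9, an intracellular mediator of BMP signalling, by 0.67 (adjusted p = 0.0380). Of 8 BMP and SMAD target genes 0 were called and 6 had lower means, with a median log2 difference of -0.12 against -0.01 over all genes. Id1 and Smad7, already described, are among these 8 and among the lower ones. The others were Atoh8 (-0.31), Bambi (-0.20), Id3 (-0.04), Id2 (-0.03), Smad6 (0.01) and Id4 (0.04). The lists of the interleukin 6 and STAT3 arm (7 genes) and of iron regulatory proteins (3 genes) had 0 called genes, and 1 of each had an unadjusted p under 0.05.

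In HFepa 0 of the 65 genes were called, against 0.391% of all genes, and 10 had an unadjusted p under 0.05 (15.4%, against 14% of all genes). The log2 differences of the 6 genes above were 0.39 for Steap4, 0.25 for Slc25a37, -0.16 for Slc25a28, 0.19 for Alad, 0.18 for Fech and -0.17 for Smad9. Between both lineages 0 of 65, and 0 (0%) of all genes, were called, and 7 had an unadjusted p under 0.05 (10.8%, against 9.96% of all genes), so the difference between the responses of HFoleic and HFepa in these genes was not resolved. Of the 8 BMP and SMAD target genes, Id1 and Smad7 again included, 7 had lower means in HFepa than in the reference, with a median of -0.22. The others were Id3 (-0.33), Atoh8 (-0.27), Id2 (-0.18), Bambi (-0.05), Smad6 (-0.01) and Id4 (0.07), none of them called. In the mean of both high-fat groups 5 of the 65 genes were called (7.69%, against 6.77% of all genes), the 6 genes above without Smad9.

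**Figure D5:**
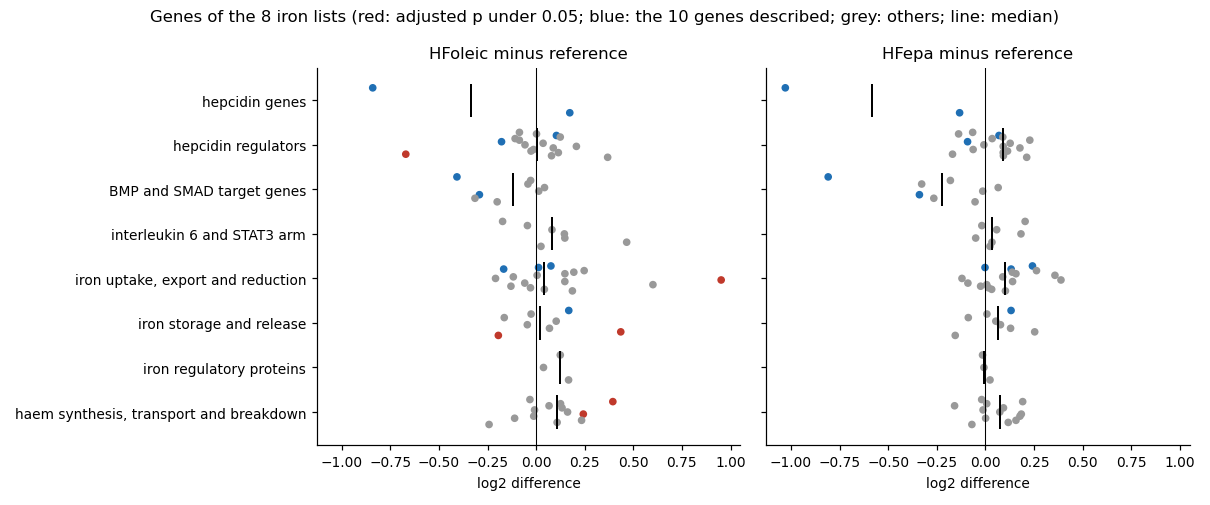
Log2 difference from the reference (x axis) of each tested gene in the 8 iron lists (y axis), in HFoleic on the left and HFepa on the right. Red points have an adjusted p under 0.05, blue points are the 10 genes described, grey points are the others and the black line is the median of a list; Hamp is the lowest point in both panels.

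The arrays and markers gave the following values beside these results. Between 50.9% and 60.8% of probes were well above background per array, the median signal was 59.5 to 89, same-group arrays correlated at 0.974 to 0.996 across probes, and 0 spots were saturated. The summed linear signal of 8 hepatocyte markers, in units of 1000, was between 1048 and 1180 on every array. Quantile normalization sets the brightest ranks alike on all arrays, and Alb and Serpina1a had mean log2 signals of 18.26 and 18.30. An even sum over these 8 markers was therefore partly built in, and it does not measure hepatocyte content. Of these 8, 2 were called lower in HFoleic, Cps1, the first enzyme of the urea cycle, at -0.89 (adjusted p = 0.00166) and Tat, tyrosine aminotransferase, at -0.63 (adjusted p = 0.00858), and both were also called in the mean of both high-fat groups (-0.68, adjusted p = 0.00524, and -0.54, adjusted p = 0.0122). In HFepa they were at -0.47 and -0.45 and not called (adjusted p = 0.177 and 0.159). The summed signal of 9 tested markers of 10 for Kupffer cells and macrophages, which also express Slc40a1, ran from 16.6 to 36.4 in reference, 20.1 to 38.2 in HFoleic and 25.3 to 41.8 in HFepa, with 7 of 9 means higher than in the reference in HFoleic, 9 of 9 in HFepa and 0 called. That of 8 sinusoidal endothelial markers ran from 16.5 to 21.0 in reference, 16.3 to 23.7 in HFoleic and 18.7 to 23.96 in HFepa, with 4 of 8 means higher in HFoleic, 8 of 8 in HFepa and 0 called in either. In the mean of both high-fat groups 1 of these 8 was called, Clec4g, at 0.30 (adjusted p = 0.0285). That of 7 hepatic stellate cell markers ran from 16.4 to 48.6 in reference, 18.5 to 28.2 in HFoleic and 21.1 to 29.7 in HFepa, and 1 of the 7, Lrat, which esterifies retinol, was called at 0.56 in HFoleic (adjusted p = 0.0015) and at 0.41 in the mean of both (adjusted p = 0.00654), but not in HFepa (0.25, adjusted p = 0.255). Of 5 adipocyte markers 4 were tested, and 0 were called. Of 9 erythroid markers 4 were tested, at 95.1 to 171 in reference, 83.8 to 144 in HFoleic and 55.7 to 139 in HFepa. Of these 4, 3 had lower means in HFoleic and 4 in HFepa, and 0 were called. Of 10 acute phase genes 8 had higher means in HFoleic and 6 in HFepa, and 0 were called in either comparison. Beside these marker counts, 8.07% of all genes were called in HFoleic, 0.391% in HFepa and 6.77% in the mean of both high-fat groups. A count of 0 called in lists this short lies near those shares, and does not show equal levels. The part of cell makeup in the results was not tested.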

How the data were processed

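Liver RNA of 24 mice was measured with 1 array per mouse, grouped and numbered as in the labels. For each array the authors deposited the scanner output (Agilent Feature Extraction 10.10.1.1), in which median, mean and background signals are raw intensities and the processed signal is a background-corrected intensity. They also deposited a table of log2 median signals, filtered and quantile normalized with limma, with 32176 probes and a filter that is not given in the sources used here. Per the file headers, each spot also carries marks (0 or 1) for being an outlier and for standing well above its background.

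Here, log2 median signals of a probe's spots were averaged without outlier spots. Of 56605 probes, 30003 stayed, those marked well above background on 75% or more of a group's arrays in any group, and values were quantile normalized. A group-means model was fitted to all 24 arrays with limma 3.58.1 in R 4.3.3 (lmFit, eBayes, contrasts, two-sided, Benjamini-Hochberg over the tested probes, calls at an adjusted p under 0.05). It was tested on simulated data. Intervals are from the moderated SE. A gene was read from its brightest tested probe. Single measures were tested by exact permutation over mice and correlations by permutation within groups (Python 3.11.15, numpy 2.4.6). Data tables were handled with pandas 2.3.3, and figures drawn with matplotlib 3.10.9. The number of arrays limits the precision. Each slide of 8 arrays held all 3 groups. So did each slide row, with 5 reference, 4 HFoleic and 3 HFepa arrays in row 1 and 4 of each group in row 2. The rows differed in outlier spots, with 134 to 191 per array in row 1 and 350 to 627 in row 2. Nothing in the labels says that mice came from separate litters, so p-values measure the spread between these mice.

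Named were all 10 genes with every probe, called genes of the 8 pathway lists (up to 5 per list) and the 5 genes most like Hamp, of which 1 is not reported here. The members, the lists and the comparisons were chosen with earlier results of these data known. Gene names and probe coordinates (mm9) were those of the scanner files, and the RefSeq table used (GRCm38.p6) gave upstream sequence only. Alternatives covered background correction, scaling, filter, outlier spots, the deposited table, slide, slide row and replicate number as blocks, the methods' t-test, fits of only the compared groups, and leaving out each mouse.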

Additional observations from a re-analysis of the deposited data

Results flagged for a closer look

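Each of the 15 probes was checked in each of the 3 groups for a single mouse far from the others, by Dixon's criterion on the gap to the nearest mouse, and 4 of 45 such checks stood out. Chance flags about 1 in 20 groups. Both Tfr2 probes were lowest in reference replicate 5, at a log2 signal of 14.97 on the brighter and 14.48 on the dimmer probe. These probes lie side by side in the gene and share an array, so they are not separate evidence. The same mouse had the highest Hamp value of its group, 16.83. Its array had a median correlation of 0.976 with those of its group, against 0.987 or more for the other 23 arrays, and the highest median signal, 89. In reference replicate 2, the dimmer Trf probe was lowest at 17.51, and Fth1 was lowest at 16.73. What set these 2 mice apart was not tested.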

How the results depend on the processing

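The counts of 0 called probes in the 3 planned comparisons did not change under any of the 11 alternatives other than leaving out a mouse. Leaving out each of the 24 mice gave 0 to 2 called probes in HFoleic minus reference and 0 in both other comparisons. In the mean of both high-fat groups, 1 probe was called with normexp background correction, with either signal scaled to the 75th percentile, with the deposited table or with slide as a block, 0 were called without the filter, with the replicate block or by the methods' t-test, and 0 to 4 when mice were left out, against 2 as reported. There the Hamp call was lost without the filter (adjusted p = 0.0720), with the replicate block (0.0728) and by the t-test (0.0561), at values of -0.93 to -0.96. Same-numbered mice of different groups did not deviate together (median r = 0.00345 over 22 pairs, from -0.30 to 0.35, 3 above 0.1, and 3 of 24 mice correlated best with their own number), so the numbers do not pair the mice. The replicate block gave 0 called probes in each planned comparison too.

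Among the 10 genes and the 2 dimmer probes of Slc40a1 and Smad7, directions changed only for differences smaller than their SE in the main fit, none of them called. With the replicate block, the HFepa difference from the reference became 0.00848 for Hamp2 and 0.00900 for Trf, and with normexp 0.00210 for Trf. In the mean of both high-fat groups, Hamp2 was -0.0514 with slide row as a block, and Slc40a1 was 0.0214 and 0.00380 with the processed and the median signal scaled to the 75th percentile. Leaving out mice gave ranges that crossed 0 in HFoleic minus reference for Hamp2 (-0.0657 to 0.428), Tfrc (-0.00209 to 0.155) and Trf (-0.000778 to 0.0262), in HFepa minus reference for Hamp2 (-0.370 to 0.122) and Trf (-0.0156 to 0.0119), and in HFepa minus HFoleic for Hamp (-0.382 to 0.0362), Smad7 (-0.0925 to 0.0227) and the dimmer Slc40a1 probe (-0.0365 to 0.122). In the mean of both high-fat groups they did for Hamp2 (-0.217 to 0.208), Trf (-0.00817 to 0.0190) and Slc40a1 (-0.0582 to 0.0301). The correlation of Hamp and Smad7 was 0.47 to 0.61 when mice were left out and 0.50 (no longer past the threshold) with slide as a block, and that of Hamp and Id1 was 0.54 and past it when values were not centred. That of Id1 and Smad7 kept its call under every alternative run, from 0.63 to 0.78. The cause of these changes was not tested.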

Other observations

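The genes most like Hamp2 from mouse to mouse, looked up after the values had been seen, were Rad50 (r = 0.90, Spearman rho = 0.88, centred values, n = 24), Hnmt (r = 0.82), Mbd2 (r = 0.81), Nckipsd (r = 0.80) and Glrx3 (r = 0.78), the highest of 19045 genes. They are given as a description with no test.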
